A study of Rattus norvegicus with 2 samples.

Results

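Prostaglandin synthesis and receptor genes were examined in rat cervical lymph nodes, the nodes of the neck, with and without restraint stress. The set held 10 of the 36174 gene names on the array and was taken by gene name: the cyclooxygenases Ptgs1 and Ptgs2, the phospholipase Pla2g4a, the synthases Ptges, Ptgis and Ptgds, the breakdown enzyme Hpgd, and the prostaglandin E2 receptors Ptger2, Ptger3 and Ptger4. Both groups were male Sprague-Dawley rats aged 10 to 12 weeks. The control group (C) had no stress, and the restraint stress group (RS) was tied to a board on the back before the nodes were collected. The labels give no restraint time; the paper's microarray comparison was of its RS30 group, the number being minutes of restraint. Anesthesia with halothane and an overdose of pentobarbital, as the methods describe, ended the experiment. Each group had 1 array, and the sources used here do not say how many rats gave the RNA of an array. No test between C and RS was possible, and every difference below lacks a replicate check. In whole-node RNA, fewer cells of a type and less RNA per cell cannot be told apart.

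Prostaglandins are short-lived lipid signals. Phospholipase A2 frees arachidonic acid from membranes, a cyclooxygenase turns it into prostaglandin H2, and terminal synthases convert that into prostaglandin E2, D2, prostacyclin or thromboxane, each with receptors of its own. In lymphoid tissue, prostaglandin E2 is known for tuning dendritic cells and lymphocytes, and Ptgs2 is the cyclooxygenase that cells switch on after a stimulus.

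Single-color Agilent arrays measured the RNA, and 16 probes carried a member's name. A probe of 60 bases reads only the transcript end or exon it matches, so the probes behind the largest differences are shown, 5′ to 3′ as the scanner files give them. Coordinates are on rn4, the build in the file headers. Ptgs2 probe 1 lay at chr13:64435202-64435261 on the plus strand, and Ptgs2 probe 2 lay 2283 bases before it at chr13:64432919-64432978. The capitals in Ptgs2 probe 2 mark a TAA stop codon at its end. Ptgis had 1 probe, at chr3:158360438-158360497 on the minus strand, and Ptger3 probe 1 lay at chr2:255759824-255759883 on the plus strand. For Ptgs2 probe 1 and Ptger3 probe 1 the first 30 bases are given.
Ptgs2 probe 1: gccaacatgattgttgtgaacatcaacctg
Ptgs2 probe 2: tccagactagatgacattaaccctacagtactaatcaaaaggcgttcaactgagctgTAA
Ptgis: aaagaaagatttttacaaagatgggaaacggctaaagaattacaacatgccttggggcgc
Ptger3 probe 1: gggggagagggcaaaattactaagtgacag

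Levels are the scanner's processed intensities, and differences are RS minus C on the log2 scale after each array's 75th percentile was subtracted, which was an intensity of 189 for C and 176 for RS. A probe was measured where the scanner software flagged it well above background, and the lowest such intensity was 9.45 on C and 8.52 on RS. On the C array 54.7% of 45598 probes passed, and on the RS array 54.9%. Of the 16 member probes, 9 passed on both arrays, 2 on the RS array only and 5 on neither. The spot error given with a difference is the scanner's own error, and covers neither animals nor labeling. Both arrays shared 1 slide and 1 scan. A gene was read from its brightest probe, and where 1 array was not well above background its difference is a lower bound. That bound is taken against the lowest flagged signal, and some probes that were not flagged were brighter, such as that of Ltc4s at 11.7 on C.

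Among the members, Ptgs2 differed most between the arrays. Of 9 members screened, 1 (Ptgs2) was at least 2-fold higher on the RS array, where 3.46% of 21096 screened genes were. None of the 9 was at least 2-fold lower, where 4.28% of screened genes were. The median difference of the 9 members was 0.20, against 0.016 over all screened genes. Differences were above 0 for 6 members and below 0 for 3, and 3 of the 9 were no larger than their spot error. Ptgis is among the 6 as a lower bound, which was kept only where above 0. Its spot error is that of the difference without the bound.

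**Figure D1:**
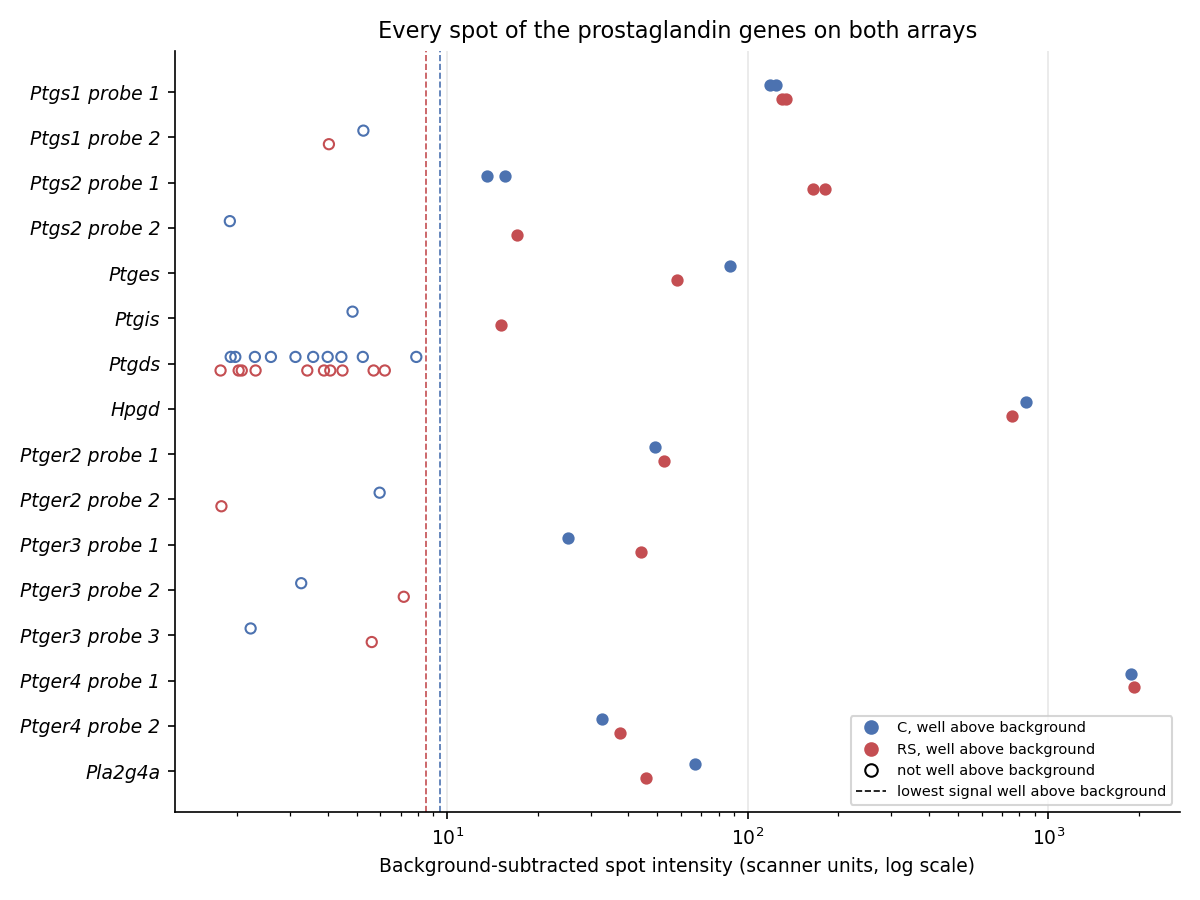
Intensity of every spot of the 16 member probes on a log axis in scanner units, C in blue and RS in red, filled where well above background. The dashed lines are the lowest intensities well above background, 9.45 for C and 8.52 for RS. The 2 C spots of Ptgs2 probe 1 sit just above the line and its RS spots far to the right.

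The cyclooxygenases make prostaglandin H2, the precursor of all the prostaglandins. The accession behind Ptgs2 probe 1 was absent from the RefSeq table used here, so the symbol of that probe rests on the array's own annotation, whereas that of probe 2 matched Ptgs2. Ptgs2 probe 1 had intensities of 13.6 and 15.6 at its 2 spots on C, and of 165 and 181 at its 2 spots on RS. Every RS spot was above every C spot, and the spots of an array lay close together. The difference of the means was 3.67 with a spot error of 0.21, a fold of 12.7, and it ranked 22 of 21096 screened genes from the highest. The C signal was close to background, and the size of the fold depended on how low signals were handled. With normexp, a model-based background correction of the raw spot signal, the difference was 2.98, a fold of 7.87. With the usual offset of 50 units added after normexp it was 1.72, a fold of 3.29, and with those 50 units added to the processed signal, without normexp, it was 1.86. Ptgs2 probe 2, which ends at the stop codon, had 1.89 on C, not well above background, and 17.1 on RS. It was therefore also higher on RS, by 1.94-fold against the lowest C signal flagged well above background. The spot error was 1.46 on the log2 difference taken without that bound. Ptgs1, the cyclooxygenase present in most resting cells, had 119 and 124 on C at probe 1 against 130 and 134 on RS. Those RS spots were also the higher ones, but the difference was 0.22 with a spot error of 0.15, a fold of 1.16. Neither array measured Ptgs1 probe 2, at 5.26 and 4.04.

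**Figure D2:**
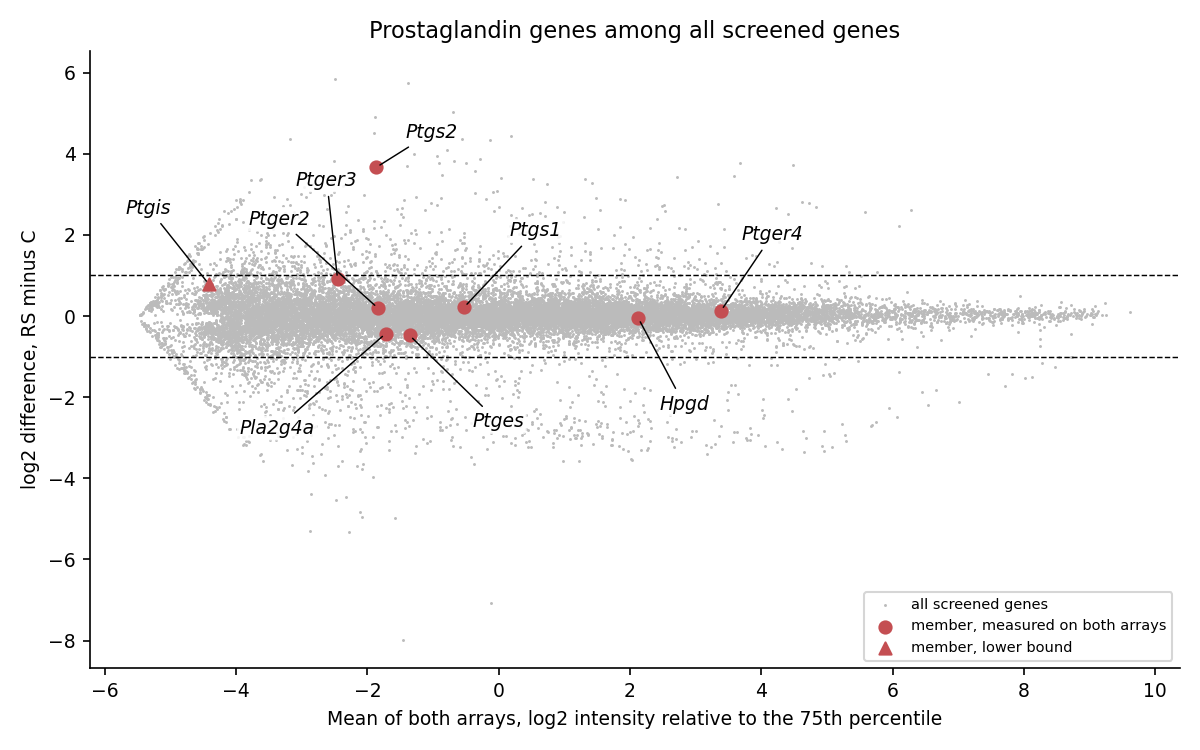
Log2 difference of RS minus C against the mean level of both arrays for 21096 screened genes (gray) and the 9 screened members (red, with a triangle for the lower bound of Ptgis). Dashed lines mark 2-fold, and Ptgs2 is the 1 member outside them.

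Pla2g4a, cytosolic phospholipase A2, releases arachidonic acid. Its intensity was 66.5 on C and 46.0 on RS, a difference of -0.43 (spot error 0.22). The RS array had the lower value, 1.35-fold below C, which is inside the 2-fold limit. Its probe lay on the same chromosome as those of Ptgs2, with 286708 bases between it and the nearest of them, and the values of these genes ran in opposite directions.

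The terminal synthases did not share a direction. Ptges, the inducible microsomal synthase of prostaglandin E2, had 87.0 on C and 58.3 on RS, a difference of -0.48 (spot error 0.21). The RS value was 1.39-fold the lower, beside the higher Ptgs2 of the same array. Ptgis, prostacyclin synthase, an enzyme of vessel walls and stromal cells, had 4.84 on C and 15.2 on RS. The C spot was not well above background. The normalized RS level was 1.72-fold above the lowest C signal flagged well above background, while the plain ratio of the normalized signals was 3.35. A spot error of 0.76 on the log2 difference leaves that size poorly fixed. Ptgds, the lipocalin-type synthase of prostaglandin D2, had 10 spots of 1 probe and none well above background. Its spots ran from 1.90 to 7.89 on C and from 1.76 to 6.20 on RS, overlapping throughout, and Ptgds was not screened.

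Breakdown of prostaglandins begins with Hpgd, 15-hydroxyprostaglandin dehydrogenase. Hpgd had 840 on C and 757 on RS, a difference of -0.053 that is smaller than its spot error of 0.20. The other 3 screened genes of breakdown, Ptgr1, Ptgr2 and Zadh2, were also slightly below 0, with a median of -0.10.

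Prostaglandin E2 acts through receptors of the EP family. Ptger4, the EP4 receptor, which raises cAMP, had 1889 on C and 1928 on RS at probe 1, a difference of 0.13 with a spot error of 0.20. At Ptger4 probe 2 the intensity was 32.7 on C and 37.6 on RS, a difference of 0.30 with a spot error of 0.23. Both Ptger4 probes were measured on both arrays and both were slightly higher on RS.
Ptger2, the EP2 receptor, which also raises cAMP, had 49.3 on C and 52.7 on RS at probe 1, a difference of 0.20 with a spot error of 0.22. Ptger2 probe 2 had 5.96 and 1.77, measured on neither array, and lay 675005 bases from probe 1. Ptger3, the EP3 receptor, which lowers cAMP, had 25.2 on C and 44.0 on RS at probe 1. The difference was 0.91 with a spot error of 0.24, a fold of 1.87, the next largest among members measured on both arrays and just inside the 2-fold limit. With normexp it was 0.65, with normexp and the offset of 50 units 0.34, and with the offset alone 0.40. Neither array measured the other two Ptger3 probes, which were at 3.27 and 2.22 on C against 7.17 and 5.61 on RS.

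Dim genes passed 2-fold more often than bright ones. Among the 5274 screened genes of lowest mean signal, 6.20% were at least 2-fold higher on RS and 7.64% lower, against 1.52% and 2.26% among the 5274 brightest. Ptgis lay among those of lowest signal. Ptgs2 and Ptger3 lay in the next group of 5274 genes, with mean intensities of 31.4 to 148, of which 3.79% were at least 2-fold higher and 4.25% lower. Their C intensities alone, 14.6 for Ptgs2 and 25.2 for Ptger3, were below that range. They entered this group only through their higher RS signals.

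Other genes of prostaglandin and leukotriene metabolism were read from a list of 42 genes, all with a probe, of which 32 were screened. At least 2-fold higher on RS was 1 of the 32, where 3.46% of all screened genes were, and 0 were lower, where 4.28% were. That gene was Anxa1, annexin A1, a protein induced by glucocorticoids and known for restraining phospholipase A2. Anxa1 had 2262 on C and 4964 on RS, a difference of 1.23 with a spot error of 0.066, a fold of 2.35. The median of the 32 was 0.099, with 21 above 0 and 11 below, and 7 of the 32 took the other sign under at least 1 alternative processing. Pla2g4b and Alox15 are among the 21 as lower bounds, which could only be above 0.

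Among other phospholipases, secreted Pla2g2a had 96.5 on C and 135 on RS, a difference of 0.58. Pla2g2d, a secreted form known from lymphoid tissue, ran the other way with 4343 and 2795, a difference of -0.54. Of the other synthases, Hpgds, the hematopoietic prostaglandin D2 synthase of mast cells and some T cells, had 569 on C and 330 on RS, a difference of -0.69. Ptges2, a further prostaglandin E2 synthase, had 103 and 73.5, a difference of -0.39, while the cytosolic form Ptges3 differed by 0.13. Fam213b, a synthase of prostaglandin F2α, had 75.3 and 108, a difference of 0.62. Thromboxane synthase, Tbxas1, had 185 and 176, a difference of 0.030 whose sign turned under another scaling. The carbonyl and aldo-keto reductases Cbr1 and Akr1b1, which can act on prostaglandins, differed by 0.29 and 0.14, and Ptges3l1 differed by -0.28. The Akr1b1 difference was smaller than its spot error of 0.20, and only 1 of its 2 probes above background had that sign. None of these synthases passed 2-fold.

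For the receptors of other prostanoids, the thromboxane receptor Tbxa2r had 94.7 on C and 55.3 on RS, a difference of -0.68. Ptgir, the prostacyclin receptor, had 79.1 and 94.4, a difference of 0.35. Ptgdr2, a prostaglandin D2 receptor, had 28.0 and 21.6, a difference of -0.27 with a spot error of 0.27. Ptgfrn, a regulator of the prostaglandin F receptor, had 187 and 222, a difference of 0.35. The prostaglandin E2 receptor Ptger1 with 2.55 and 8.02, the prostaglandin F receptor Ptgfr with 8.62 and 3.52, and Ptgdr were measured on neither array. In the leukotriene branch 6 of 10 genes were screened and none had a difference or bound past 2-fold, with a median of 0.18. The lipoxygenase Alox15 had 2.50 on C, not well above background, and 10.3 on RS. Its 0.22 is therefore a lower bound, and its plain difference was 2.14 with a spot error of 1.19. The receptors for the cysteinyl leukotrienes, Cysltr2 and Cysltr1, differed by 0.55 and 0.34. The leukotriene B4 receptors Ltb4r and Ltb4r2 were not measured on either array.

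**Figure D3:**
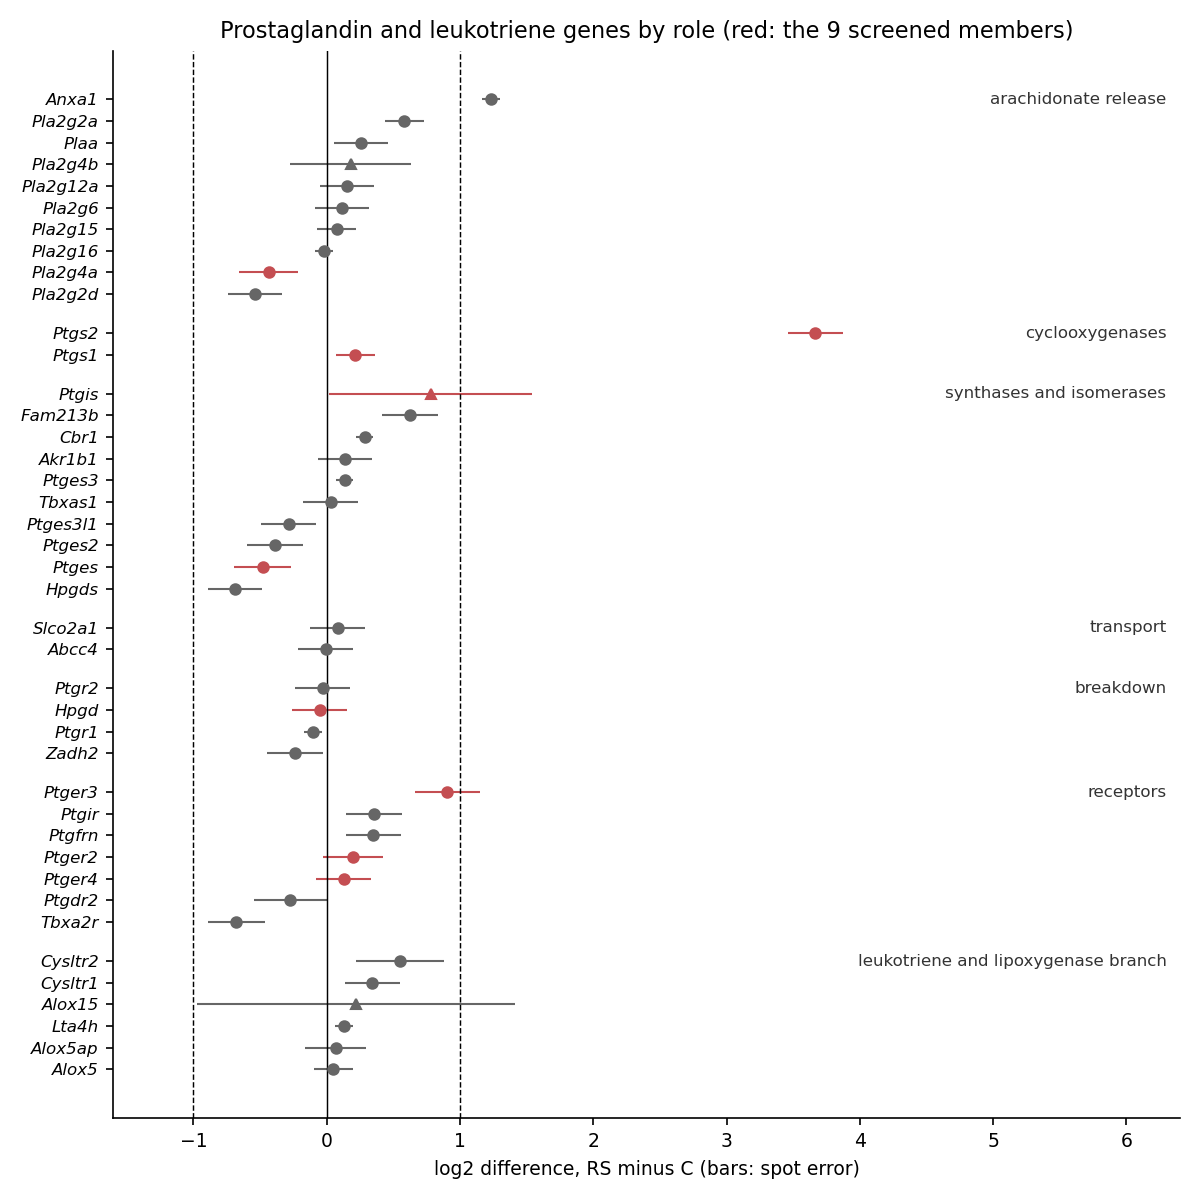
Log2 difference of RS minus C for the 9 screened members (red) and the 32 other screened genes of the pathway (gray), grouped by role. Bars are the spot error, triangles are lower bounds and dashed lines mark 2-fold. Ptgs2 and Anxa1 are the 2 genes beyond the lines.

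Markers of the tissue and of other cells were read on the same arrays. The T cell list had all 7 genes measured and none past 2-fold, with a median of -0.16, and the B cell list had 5 of 6 screened, none past 2-fold, with a median of 0.099. The macrophage list had 8 of 8 screened with a median of 0.0071. By contrast, 6 of 7 screened fat genes were at least 2-fold higher on RS, and their summed level, relative to the 75th percentile, was 36.1 on C and 103 on RS. Plin1 and Pck1 of that list were measured on neither array. The fibroblastic list had 4 of 8 genes past 2-fold, among them Col1a1 at 1.24 and Pdpn at 1.16, and its summed level was 73.2 on C and 162 on RS. The rest of that list was Dcn at 0.79, Pdgfrb at 0.23, Lum at 0.060 and Pdgfra at -0.39. All 6 screened erythrocyte genes were past 2-fold, and the summed level was 52.9 on C and 317 on RS. The neutrophil list had 2 of 6, S100a8 at 3.99 and S100a9 at 3.78, with Ngp and Camp not well above background, and its summed level was 0.693 on C and 4.67 on RS. Without S100a8 and S100a9, the sum of its other 4 screened genes was 0.398 on C and 0.418 on RS.
The fat, fibroblastic and erythrocyte lists, and S100a8 and S100a9, were higher on the same array as Ptgs2, Ptgis and Ptger3, and their part in those differences was not tested. The endothelial list, which bears on Ptgis, had 0 of 8 past 2-fold, with 4 above 0 and 4 below. Its summed level was 29.8 on C and 31.2 on RS. Mast cell genes, which bear on Hpgds, had 0 of 7 past 2-fold with a median of 0.34, 6 above 0 and 1 below. The T cell list, which also bears on Hpgds, had 1 gene above 0 and 6 below. The platelet list, which bears on Tbxas1 and Tbxa2r, had 3 of 6 genes with a probe screened and none past 2-fold. Its median was 0.43, with 2 above 0, Pf4 at 0.94 and Gp1bb at 0.43, and 1 below, Gp9 at -0.60. The part of the endothelial, mast cell, T cell and platelet lists in the values of those genes was not tested.

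**Figure D4:**
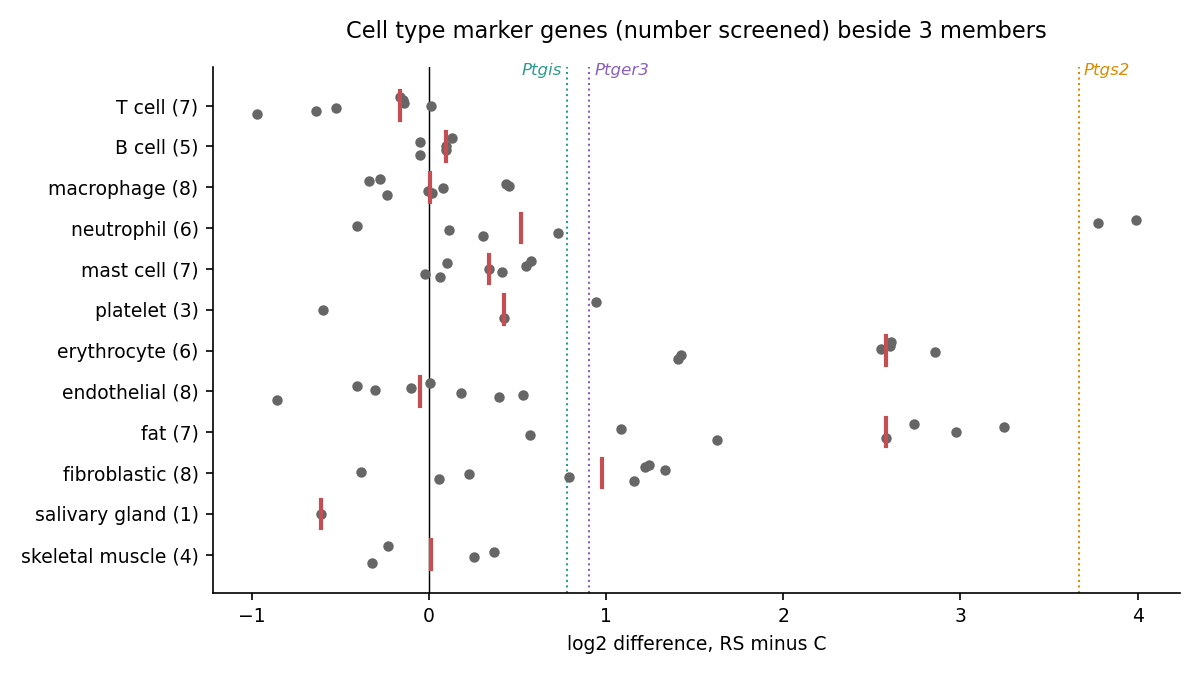
Log2 difference of RS minus C for each screened marker gene (gray), with each list's median as a red bar and the number of genes in brackets. Dotted lines mark Ptgis (a lower bound), Ptger3 and Ptgs2. Fat, fibroblastic and erythrocyte genes lie to the right of 0, apart from 1 fibroblastic gene, Pdgfra, at -0.39.

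RefSeq holds a promoter for 9 of the 10 members in build GRCr8. That of Ptgs2 is shown because Ptgs2 was the member past 2-fold. It covers the 250 bases before the start, chr13:64713813-64714062 on the plus strand. The capitals mark, in order, TTATGCAAT (a match to the C/EBP motif TTNNGCAAT, from -140 to -132), the E-box CACGTG (from -55 to -50) and TTTAAA (from -31 to -26), counted from the start.
Ptgs2 promoter: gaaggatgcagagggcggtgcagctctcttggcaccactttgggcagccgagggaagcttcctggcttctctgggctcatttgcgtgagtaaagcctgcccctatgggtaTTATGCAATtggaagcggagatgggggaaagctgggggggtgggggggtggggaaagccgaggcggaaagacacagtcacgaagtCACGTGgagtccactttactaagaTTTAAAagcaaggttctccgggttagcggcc
Both strands were searched, and the motifs were picked with the sequence in view. Of 33469 promoters of that length, 2.04% hold TTNNGCAAT, 5.59% hold CACGTG and 12.3% hold TTTAAA. Among the 9 members, TTNNGCAAT and CACGTG were found in Ptgs2 alone, TTTAAA in Ptgs2 and Pla2g4a, TATAAA (12.9% of promoters) in Pla2g4a, TGACG (18.2%) in Hpgd, and TGACGTCA (1.59%) in none. A match is a run of letters and not a measured binding site.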

How the data were processed

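RNA from rat cervical lymph nodes was labeled with Cy3 and hybridized to SurePrint G3 Rat GE 8X60K v2 arrays, 1 for C and 1 for RS. The authors' scanner files give the processed intensity of 62976 spots per array, made with Feature Extraction 11.5.1.1 per the labels. The methods name a 75th percentile shift in GeneSpring and a 2-fold limit. The deposited value table holds log2 values, and all of its 45598 probes matched the shifted scanner values within 0.1.

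Here control spots and outlier spots (489 on C, 660 on RS) were left out, spots of a probe were averaged on the log2 scale, and the 75th percentile was subtracted. A gene took its brightest probe, and was screened where 1 array or both flagged over 50% of that probe's spots as well above background. Where 1 array was not, the lowest signal flagged well above background on that array stood in, or the probe's own signal where that was higher. With 1 array per group no test was run, the number of arrays limits the precision, and the spot error is that of the scanner. Probe accessions were looked up in RefSeq, where 14 of 16 matched, all under the same symbol, and those of Ptgs2 probe 1 and Ptger2 probe 2 did not. Of 45 pathway symbols, 3 were second names of listed genes and are not counted. Every member and every other receptor or terminal synthase was to be named, with further pathway genes past 2-fold. The members and lists were chosen with earlier results of these data known. The scan time and the scanner model in the file headers differ from the study's methods, the scan being earlier than the period given for the experiments. The steps were tested on simulated data with changes planted only in brighter genes. That test does not cover signals as low as those of Ptgs2, Ptgis and Ptger3 on C. Python 3.11.15, pandas 2.3.3, R 4.3.3 and limma 3.58.1 were used.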

Additional observations from a re-analysis of the deposited data

How the results depend on the processing

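No paired analysis was possible because C and RS had 1 array each. Under 15 alternatives, 3 of them chosen after seeing the data, the members gave 134 values, none with a changed direction, and Ptgs2 was past 2-fold in 15 of 15. Part of that sameness was fixed in advance. A bound at or below 0 was dropped, so Ptgis could not turn negative where a bound was used. For a member measured on both arrays at 1 probe only, changing the filter, the bound or the averaging over probes changed nothing. With normexp and its offset of 50 units, Ptgs2 was 1.72, Ptges -0.22, Ptger3 0.34 and Pla2g4a -0.16. The offset pulls low signals toward 0 difference by construction: added to the processed signal without normexp it gave Ptgs2 1.86, Ptges -0.26, Ptger3 0.40 and Pla2g4a -0.20, while normexp without offset gave Ptgs2 2.98 and Ptger3 0.65. The mean over probes gave Ptgs2 2.31, a lower bound since probe 2 entered it as a bound, and 3.47 with plain differences. Ptgis was 1.74 with a plain difference in place of the bound, alone or with the mean over probes, and with no filter on background, and had no value among genes measured on both arrays. Under each of those 3 settings, 2 members were at least 2-fold higher, Ptgs2 and Ptgis. Of the other pathway genes, 2 were higher with plain differences, alone or with the mean over probes, and 4 were higher and 1 lower with no filter. The shares of 3.46% higher and 4.28% lower among all screened genes hold for the main setting, and none is given for these settings. With no filter, genes that were not screened also entered, so these counts cannot be set against those shares. Without a filter or bound, values rest on signals that were not well above background. The median of all screened genes lay between -0.084 and 0.041 under the alternatives.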
